A study of Mus musculus with 12 samples.

Results

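The 10 genes described here encode interleukin 10 (IL-10), the chains of its receptor, the kinases and the transcription factor that carry its signal, and a feedback inhibitor and regulators that lie downstream: Il10, Il10ra, Il10rb, Jak1, Tyk2, Stat3, Socs3, Bcl3, Nfil3 and Sbno2. They were chosen by name, and each was found once among the 31054 gene identifiers of the count tables. Messenger RNA had been sequenced from live, CD11c-enriched dendritic cells of wild-type C57BL6 mouse bone marrow on day 7 of culture, with 3 libraries in each of 4 groups. BMDC were control cells with no treatment, and BMDC+LPS were control cells given lipopolysaccharide (LPS), a bacterial cell wall component sensed by Toll-like receptor 4. TolDC had received vitamin D3 and IL-10 to make them tolerogenic, and TolDC+LPS had received LPS as well. Vitamin D3 and IL-10 were always given together, so their effects cannot be told apart, and the sources used here do not give doses, times or the age of the mice.

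IL-10 is a cytokine that restrains inflammatory gene expression in macrophages and dendritic cells. It binds a receptor made of a ligand-specific chain, IL-10RA, and a chain shared with related cytokines, IL-10RB. The receptor-bound kinases JAK1 and TYK2 then phosphorylate STAT3, which enters the nucleus and raises the transcription of target genes, among them Socs3, Bcl3, Nfil3 and Sbno2 in myeloid cells. RNA counts measure none of the phosphorylation steps.

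Levels are CPM, counts scaled to a common library total. Changes are log2 differences ± SE from edgeR's quasi-likelihood test, fitted to 13141 genes, and a gene was called at a Benjamini-Hochberg adjusted p below 0.05. Each library held 21844405 to 41764975 reads assigned to genes. Whether the 3 libraries of a group came from separate mice or cultures is not stated, so p-values reflect the spread between libraries, which may be technical. In bulk samples, fewer cells of a type and less RNA per cell cannot be told apart. The summed level of 11 dendritic cell markers was 7617 to 12645 CPM over the 12 libraries. Cd209a, 1 of them, was at 0 counts in both TolDC groups. It held only 12 counts over BMDC and 3 over BMDC+LPS and was not tested. Of the 10 tested, 6 were lower and 2 higher in TolDC than in BMDC, both without LPS and with it (4 lower and 2 higher of the 8 that reached the filter in every group). The 10 macrophage markers summed to 1220 to 1312 CPM in BMDC, 831 to 967 CPM in BMDC+LPS, 1011 to 1054 CPM in TolDC and 1346 to 1577 CPM in TolDC+LPS. Singly, 7 of these 10 were lower and 3 higher in TolDC without LPS, and 6 were lower and 3 higher with LPS. Of the 7 that reached the filter in every group, 4 were lower and 3 higher, and with LPS 3 and 3. Beside these dendritic cell and macrophage marker counts, 30.4% of all tested genes were lower and 32% higher without LPS. With LPS these shares were 33.7% and 34.3%. The 11 granulocyte, mast cell and basophil markers summed to 620 to 2588 CPM in BMDC, 351 to 1729 CPM in BMDC+LPS, 161 to 826 CPM in TolDC and 206 to 696 CPM in TolDC+LPS, with the library numbered 1 lowest in each group. The libraries numbered 1 stood apart in all counts too: the chi-square per degree of freedom was 5.16 to 11.6 between them and the others of their group and 1.35 to 2.30 between numbers 2 and 3. No marker of either list was at 0 in a whole group. Their part in the differences below was not tested. Of 45 member changes (9 genes in 5 comparisons), 44 had the same sign within the libraries numbered 1, 2 and 3 taken separately, and the exception was Sbno2 between TolDC and BMDC without LPS.

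LPS raised most of the pathway in both kinds of cell, and the vitamin D3 and IL-10 treatment moved its members in opposite directions. Counts are given over the 9 members that passed the filter on low counts in every group, since Il10 passed only through its level in BMDC+LPS. With LPS, 8 of 9 rose in BMDC and none fell, against 36.7% of all tested genes called higher and 36.4% called lower (73.2% in either direction). In TolDC, 8 rose with LPS and 1 fell, against 35.4% called higher and 35.9% called lower (71.3% in either direction). The median log2 change of the 9 was 0.87 in BMDC and 0.93 in TolDC, beside a median of -0.00029 and -0.0017 over all tested genes. In TolDC against BMDC without LPS, 2 of 9 were higher, 6 lower and 1 not called, against 32% and 30.4% of all tested genes. With LPS, 2 were higher, 5 lower and 2 not called, against 34.3% and 33.7%, and the median log2 difference was -0.18 without and -0.13 with LPS. Over all tested genes these medians were 0.0091 and 0.024. In either direction, 62.4% of all tested genes were called between the cell types without LPS and 67.9% with LPS. Without the 4 libraries numbered 1, Jak1 was called as well for LPS in BMDC (9 of 9 higher), Sbno2 for TolDC against BMDC without LPS (3 higher, 6 lower) and Jak1 with LPS (3 higher, 5 lower).

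**Figure D1:**
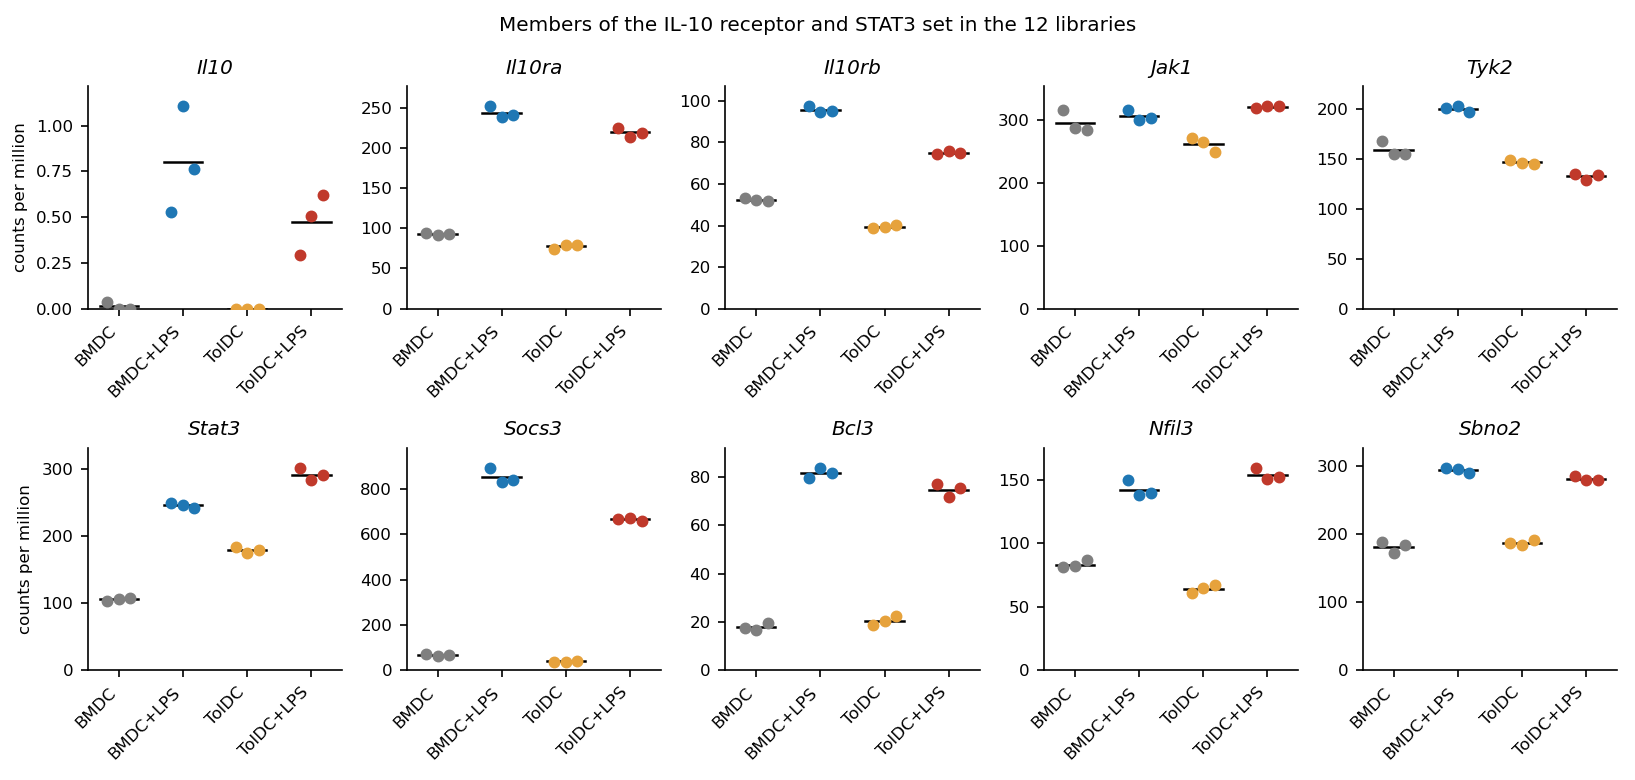
Levels of the 10 members in CPM (vertical axes, from 0) in each of the 12 libraries, 3 per group from left to right by replicate number, with a line at the group mean. Stat3 had its lowest values in BMDC and its highest in TolDC+LPS, while Socs3 was low in both groups without LPS and Il10 stayed at or below 1.11 CPM.

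Il10 (ENSMUSG00000016529, chr1:131019845-131024974 of GRCm38, plus strand), the ligand, had very few reads. BMDC held 1, 0 and 0 counts, and TolDC held 0 in all 3 libraries. BMDC+LPS held 15, 24 and 17 counts (0.528, 1.11 and 0.764 CPM, mean 0.799 ± 0.291 SD, n = 3), and TolDC+LPS held 9, 15 and 25 counts (0.294, 0.504 and 0.619 CPM, mean 0.472 ± 0.165). Every library with LPS was above every library without it, whereas the libraries of BMDC+LPS and TolDC+LPS overlapped. The ratio of BMDC+LPS to BMDC was 63.8 with a 95% counting interval of 11.0 to 2564. In TolDC the level with LPS was at least 12.7-fold higher than the floor of 3 counts over the group, and at least 8.06-fold without TolDC replicate 3. Intervals and floors rest on counts summed over the libraries of a group, cover counting error only and are given as descriptions. The fit also compared TolDC+LPS with BMDC+LPS for Il10 and did not call it. No fitted comparison of Il10, with LPS or between cell types, is read as a result, since Il10 passed the filter only through BMDC+LPS. The counts hold the cells' own transcript and say nothing of the IL-10 supplied to the TolDC cultures.

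The receptor chains both rose with LPS, and both were lower in TolDC with and without it. Il10ra (ENSMUSG00000032089, chr9:45253837-45269149, minus strand), the ligand-specific chain, was at 94.2, 91.2 and 92.6 CPM in BMDC and at 252, 239 and 241 CPM in BMDC+LPS. It was at 74.4, 79.2 and 78.8 CPM in TolDC and at 225, 214 and 219 CPM in TolDC+LPS. All libraries with LPS lay above all libraries without, and within each condition every TolDC library lay below every BMDC library. The log2 change with LPS was 1.40 ± 0.04 in BMDC and 1.50 ± 0.04 in TolDC (edgeR adjusted p = 2.56e-16 and 1.08e-16). Il10ra was lower in TolDC by a log2 difference of -0.26 ± 0.04 without LPS and of -0.15 ± 0.04 with LPS (edgeR adjusted p = 1.58e-05 and 0.00144). The latter was -0.10 with upper-quartile scaling (edgeR adjusted p = 0.0179).

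Il10rb (ENSMUSG00000022969, chr16:91406164-91425834, plus strand), the chain shared with receptors for IL-22 and interferon lambda, followed the same order of groups. Its levels were 53.3, 52.1 and 51.8 CPM in BMDC and 97.4, 94.4 and 94.9 CPM in BMDC+LPS. In TolDC they were 38.7, 39.3 and 40.0 CPM, and in TolDC+LPS 74.2, 75.7 and 74.7 CPM. No groups overlapped. Il10rb rose with LPS by 0.87 ± 0.04 in BMDC and 0.93 ± 0.04 in TolDC on the log2 scale (edgeR adjusted p = 9.48e-14 and 5.41e-14). TolDC were lower by -0.41 ± 0.04 without LPS and -0.35 ± 0.04 with LPS (edgeR adjusted p = 2.09e-08 and 5.55e-08). The LPS responses of Il10ra and Il10rb were not called as different between the cell types. Those differences were 0.10 (interval -0.01 to 0.22, edgeR adjusted p = 0.131) and 0.06 (interval -0.05 to 0.17, adjusted p = 0.367), and that of Il10ra was called with upper-quartile scaling (0.16, adjusted p = 0.0112).

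Per kilobase of exon, Il10ra transcripts outnumbered those of Il10rb in every library. The ratio of reads per kilobase was 1.92 ± 0.0205 (SD, n = 3) in BMDC and 2.14 ± 0.0503 in TolDC. With LPS it was 2.78 ± 0.0350 in BMDC and 3.19 ± 0.114 in TolDC. Ratios of the 4 groups did not overlap.

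Of the kinases, Jak1 moved little and Tyk2 moved in opposite directions with LPS in the 2 cell types. Jak1 (ENSMUSG00000028530, chr4:101152367-101265282, minus strand), which binds the IL-10RA chain, was at 316, 288 and 285 CPM in BMDC and at 317, 300.2 and 304 CPM in BMDC+LPS. It was at 272, 265 and 249.98 CPM in TolDC and at 320.3, 322 and 323 CPM in TolDC+LPS. The control groups overlapped, the TolDC libraries were the lowest and the TolDC+LPS libraries the highest. Jak1 rose with LPS in TolDC by 0.30 ± 0.04 and was lower in TolDC than in BMDC by -0.18 ± 0.04 on the log2 scale (edgeR adjusted p = 7.73e-06 and 0.00202). In BMDC the LPS difference was 0.05 ± 0.04 with an interval of -0.04 to 0.14, which was not called (edgeR adjusted p = 0.295). It was called without BMDC replicate 1 (0.10, adjusted p = 0.0422) and without the libraries numbered 1 (0.08, adjusted p = 0.0167), and it was -0.030 with upper-quartile scaling (adjusted p = 0.514). With LPS, TolDC against BMDC differed by 0.07 ± 0.04 for Jak1 (edgeR adjusted p = 0.185). That difference was called without the libraries numbered 1 (0.10, adjusted p = 0.00299) and with upper-quartile scaling (0.12, adjusted p = 0.0108).

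Tyk2 (ENSMUSG00000032175, chr9:21104068-21131243, minus strand), the kinase bound to IL-10RB and also to the interferon alpha and IL-12 receptors, was at 167, 155 and 154 CPM in BMDC and at 200.4, 203 and 197 CPM in BMDC+LPS. It was at 148, 146 and 145 CPM in TolDC and at 135, 129 and 134 CPM in TolDC+LPS. The groups did not overlap, and LPS moved Tyk2 up in BMDC and down in TolDC. The log2 change with LPS was 0.33 ± 0.04 in BMDC and -0.14 ± 0.04 in TolDC (edgeR adjusted p = 2.77e-07 and 0.00298). The difference between these responses was -0.47 ± 0.05 (edgeR adjusted p = 1.20e-06). Tyk2 was lower in TolDC by -0.59 ± 0.04 with LPS and by -0.12 ± 0.04 without (edgeR adjusted p = 1.20e-10 and 0.0123). Without BMDC replicate 1, the smaller of these was -0.08 and was not called (edgeR adjusted p = 0.0805).

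The balance of the kinases differed accordingly. Per kilobase of exon, the ratio of Tyk2 to Jak1 was 0.565 ± 0.00633 (SD, n = 3) in BMDC and 0.588 ± 0.0187 in TolDC. It was 0.686 ± 0.0228 in BMDC+LPS and 0.434 ± 0.0116 in TolDC+LPS. The groups without LPS lay closest to each other, and TolDC+LPS lay below all the rest.

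Stat3 (ENSMUSG00000004040, chr11:100885098-100939540, minus strand), the transcription factor of the pathway, was higher in TolDC in both conditions and rose with LPS in both cell types. Its levels were 103, 106 and 108 CPM in BMDC and 183, 175 and 178 CPM in TolDC. With LPS they were 249, 247 and 242 CPM in BMDC and 302, 283 and 290.2 CPM in TolDC. The 4 groups did not overlap, and unstimulated TolDC lay between BMDC and BMDC+LPS. Stat3 was higher in TolDC by 0.76 ± 0.04 without LPS and by 0.24 ± 0.04 with LPS on the log2 scale (edgeR adjusted p = 3.27e-12 and 1.15e-05). LPS raised it by 1.22 ± 0.04 in BMDC and by 0.71 ± 0.04 in TolDC (edgeR adjusted p = 1.34e-15 and 3.66e-12). The rise in TolDC was smaller by -0.52 ± 0.05 (edgeR adjusted p = 2.92e-07). Stat3 overlaps Stat5a on the opposite strand, and both were counted by strand.

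**Figure D2:**
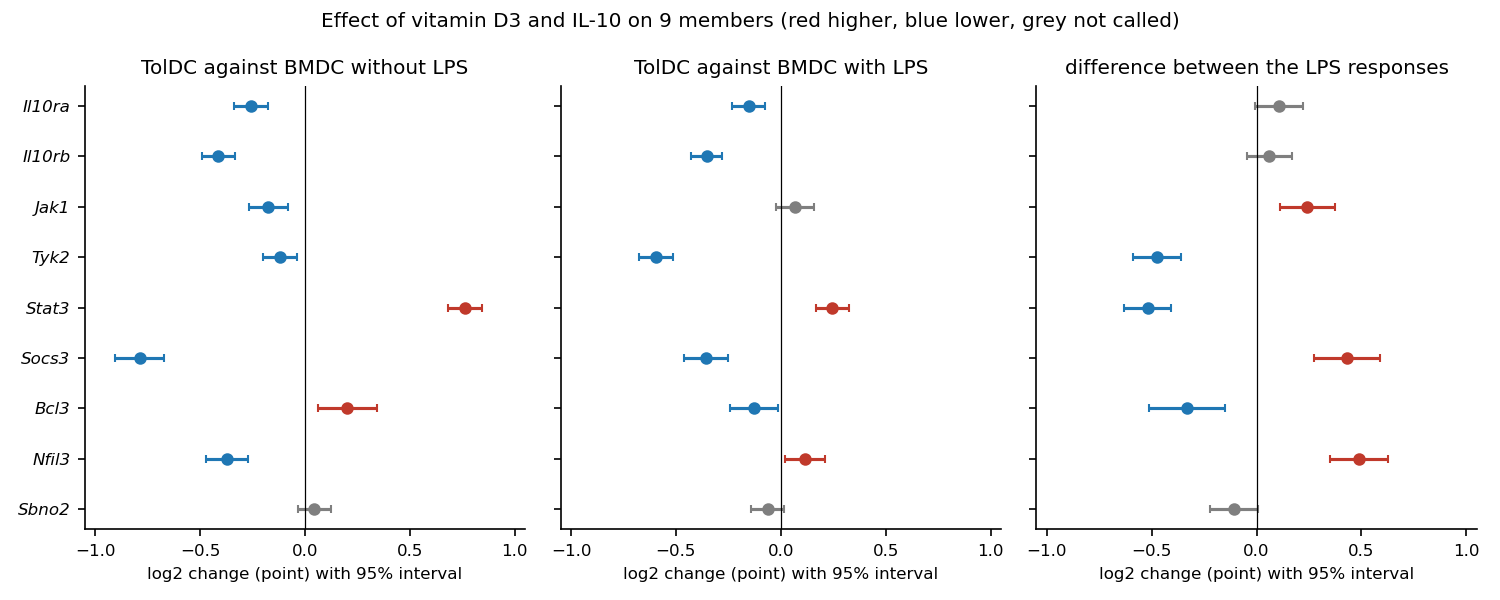
Log2 difference of TolDC from BMDC without LPS (left), with LPS (middle) and the difference between the LPS responses (right), as points with 95% intervals for 9 members. Stat3 was higher and Socs3, Tyk2, Il10ra and Il10rb were lower in TolDC in both conditions. Nfil3 and Bcl3 changed sides, but their calls with LPS were lost in some alternatives. Jak1 and Sbno2 changed sign too and were not called with LPS.

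Socs3 (ENSMUSG00000053113, chr11:117966079-117970047, minus strand) encodes a STAT3-induced inhibitor that blocks signalling by gp130 cytokines such as IL-6, while IL-10 signalling is known to escape it. It had the largest LPS response of the 9 members. Socs3 was at 71.7, 61.8 and 66.3 CPM in BMDC and at 895, 831 and 838 CPM in BMDC+LPS. It was at 36.4, 37.7 and 41.3 CPM in TolDC and at 669, 673 and 661 CPM in TolDC+LPS. The groups did not overlap, and in each condition TolDC lay below BMDC, the reverse of the order of Stat3. LPS raised Socs3 by 3.68 ± 0.06 in BMDC and by 4.11 ± 0.06 in TolDC on the log2 scale (edgeR adjusted p = 5.20e-20 and 2.48e-20). Only 1.16% and 1.07% of tested genes had a log2 change at least as high. TolDC were lower by -0.79 ± 0.06 without LPS and by -0.36 ± 0.05 with LPS (edgeR adjusted p = 5.18e-10 and 4.60e-06). The LPS response was larger in TolDC by 0.43 ± 0.07 (edgeR adjusted p = 1.21e-04).

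Per kilobase of exon, the ratio of Socs3 to Stat3 was 2.09 ± 0.196 (SD, n = 3) in BMDC and 0.710 ± 0.0532 in TolDC. With LPS it was 11.4 ± 0.359 in BMDC and 7.55 ± 0.270 in TolDC. In each condition the TolDC libraries lay below the BMDC libraries.

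STAT dimers bind a palindrome of the letters TTCNNNGAA, and the windows of 250 bases before the RefSeq start sites of the members (GRCm38.p6, 9 windows for 7 members) were searched for it on both strands. Jak1, Tyk2, Stat3, Socs3, Bcl3, Nfil3 and Sbno2 had an entry. The letters were found in 3 of the 9 windows, 1 of Socs3 and 2 of the 3 of Sbno2, and in 7.02% of all 32851 such windows. The narrower form TTCCNGGAA, contained in the former, was in 1 of the 9 and in 0.913% of all windows, and the NF-kB letters GGGA, any base and TTTCC were in 0 of the 9 and in 0.356%. A match is a description of the letters and no evidence of binding. Only the 3 windows that hold the letters are shown. Stat3, Bcl3 and Nfil3, which also rose with LPS in both cell types, held none in theirs, nor did the third Sbno2 window. All are on the minus strand, read 5′ to 3′ toward the start site, with the STAT letters in capitals: Socs3 at chr11:117969367-117969616, and Sbno2 at chr10:80102703-80102952 (start A) and chr10:80101188-80101437 (start B).
Socs3: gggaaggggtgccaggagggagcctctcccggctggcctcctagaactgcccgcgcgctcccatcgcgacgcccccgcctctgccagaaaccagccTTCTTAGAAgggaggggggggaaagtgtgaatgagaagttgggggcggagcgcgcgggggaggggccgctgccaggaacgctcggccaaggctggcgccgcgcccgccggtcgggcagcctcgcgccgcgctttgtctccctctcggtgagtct
Sbno2 start A: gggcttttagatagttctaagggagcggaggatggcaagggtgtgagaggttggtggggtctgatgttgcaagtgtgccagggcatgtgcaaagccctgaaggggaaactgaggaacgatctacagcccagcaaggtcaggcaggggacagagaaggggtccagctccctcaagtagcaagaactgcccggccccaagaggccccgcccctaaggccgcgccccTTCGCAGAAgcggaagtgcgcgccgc
Sbno2 start B: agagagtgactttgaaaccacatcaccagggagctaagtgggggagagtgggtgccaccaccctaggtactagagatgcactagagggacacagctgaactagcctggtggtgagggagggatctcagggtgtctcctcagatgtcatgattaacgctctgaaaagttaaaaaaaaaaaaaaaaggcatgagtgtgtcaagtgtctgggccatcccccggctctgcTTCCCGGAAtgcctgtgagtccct
In Socs3 the match lay 154 to 146 bases before the start site. In Sbno2 it lay 26 to 18 bases before start A and 24 to 16 bases before start B, the latter in the narrower form. GENCODE M21 annotates both genes from further upstream, so the 3 windows shown lie within the annotated genes.

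Sbno2 (ENSMUSG00000035673, chr10:80056992-80105571, minus strand), a strawberry notch homologue known as an IL-10 and STAT3 target that lowers NF-kB driven transcription, responded to LPS but hardly differed between the cell types. It was at 188, 172 and 183 CPM in BMDC and at 297, 294 and 289 CPM in BMDC+LPS. It was at 187, 184 and 190.5 CPM in TolDC and at 285, 279 and 279 CPM in TolDC+LPS. The groups without LPS overlapped, and with LPS the TolDC libraries lay just below the BMDC libraries. LPS raised it by 0.70 ± 0.04 in BMDC and by 0.59 ± 0.04 in TolDC on the log2 scale (edgeR adjusted p = 5.73e-12 and 7.34e-11). The TolDC difference was 0.04 without LPS (interval -0.04 to 0.12, edgeR adjusted p = 0.329) and -0.06 with LPS (interval -0.14 to 0.02, adjusted p = 0.145), and neither was called. Without the libraries numbered 1, the former was called (0.08, adjusted p = 0.0319), and with DESeq2 the latter was (-0.08, adjusted p = 0.0441). The difference between its LPS responses, -0.11, was not called (edgeR adjusted p = 0.115), but it was without BMDC replicate 1 (-0.13, adjusted p = 0.0487) and without the libraries numbered 1 (-0.14, adjusted p = 0.00576). Gene counts do not separate the transcripts of its alternative start sites.

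Bcl3 (ENSMUSG00000053175, chr7:19808462-19822770, minus strand), an atypical inhibitor protein of the NF-kB family that holds p50 dimers on DNA, had the largest LPS response after Socs3. It was at 17.5, 16.7 and 19.6 CPM in BMDC and at 79.6, 83.9 and 81.9 CPM in BMDC+LPS. It was at 18.8, 20.3 and 22.3 CPM in TolDC and at 77.1, 71.8 and 75.3 CPM in TolDC+LPS. The groups without LPS overlapped, and with LPS the TolDC libraries lay below the BMDC libraries. LPS raised Bcl3 by 2.20 ± 0.06 in BMDC and by 1.87 ± 0.06 in TolDC on the log2 scale (edgeR adjusted p = 2.64e-16 and 2.44e-15), a rise smaller in TolDC by -0.33 ± 0.09 (adjusted p = 0.00430). The differences of TolDC from BMDC were small, 0.20 ± 0.07 without LPS and -0.13 ± 0.05 with LPS (edgeR adjusted p = 0.0142 and 0.0424). Both calls depended on single libraries. The former was not called without BMDC replicate 2 (0.15, adjusted p = 0.0915) or TolDC replicate 3 (0.13, adjusted p = 0.114). The latter was not called in 8 of 22 alternatives, among them without either of BMDC+LPS replicates 2 and 3, TolDC replicate 2 or TolDC+LPS replicates 2 and 3, with values from -0.17 to -0.07 over all 22 and adjusted p from 0.000553 to 0.254.

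Nfil3 (ENSMUSG00000056749, chr13:52967209-52981073, minus strand), a basic leucine zipper repressor through which IL-10 is known to lower Il12b in macrophages, rose more steeply with LPS in TolDC. It was at 81.2, 81.8 and 87.0 CPM in BMDC and at 149.7, 138 and 139.5 CPM in BMDC+LPS. It was at 60.6, 64.9 and 67.4 CPM in TolDC and at 159.7, 151 and 152 CPM in TolDC+LPS. TolDC were the lowest libraries and TolDC+LPS the highest, with no overlap between groups. LPS raised Nfil3 by 0.77 ± 0.05 in BMDC and by 1.26 ± 0.05 in TolDC on the log2 scale (edgeR adjusted p = 2.01e-11 and 1.76e-14), a response larger in TolDC by 0.49 ± 0.07 (adjusted p = 7.69e-06). Without LPS it was lower in TolDC by -0.37 ± 0.05 (edgeR adjusted p = 1.66e-06). With LPS it was higher by 0.12 ± 0.05 (edgeR adjusted p = 0.0300), a call lost in 6 of 22 alternatives, among them without either of BMDC+LPS replicates 2 and 3 or TolDC+LPS replicate 1, with adjusted p from 0.000455 to 0.142.

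**Figure D3:**
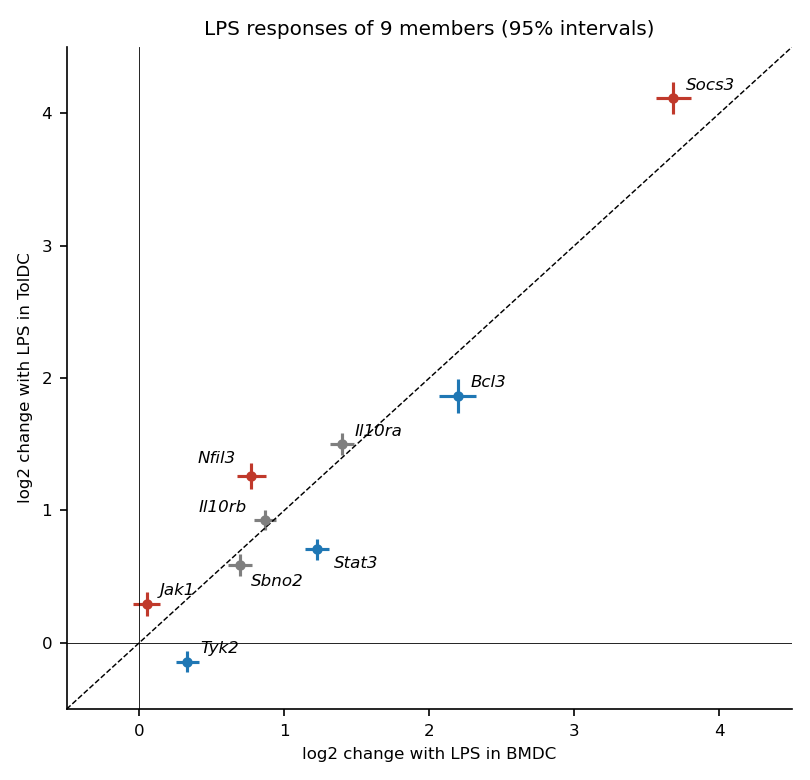
Log2 change with LPS in BMDC (horizontal) against that in TolDC (vertical) for 9 members, with 95% intervals and a dashed line of equal change. Red points had a larger and blue points a smaller or opposite response in TolDC by the test of the difference, and grey points were not called; Socs3 stood at 3.68 and 4.11.

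The LPS responses of 6 of the 9 members differed between TolDC and BMDC, 3 toward a larger and 3 toward a smaller change in TolDC, against 20.4% and 24% of all tested genes (44.4% in either direction). Jak1 (0.24 ± 0.06, edgeR adjusted p = 0.00384), Socs3 and Nfil3 were on the larger side, and Tyk2, Stat3 and Bcl3 on the smaller. All 6 calls held in each of the 21 alternatives run for that comparison.

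Compared per kilobase of exon and library total (RPKM), Socs3 had the highest mean of the 9 members in both LPS groups, 296 in BMDC+LPS and 231 in TolDC+LPS. Without LPS the highest means were 41.1 for Nfil3 and 41.0 for Jak1 in BMDC, and 36.3 for Jak1 and 31.7 for Nfil3 in TolDC. The lowest was Bcl3 in both unstimulated groups, at 7.24 in BMDC and 8.28 in TolDC. Stat3 went from 11.1 in BMDC to 30.6 in TolDC+LPS.

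**Figure D4:**
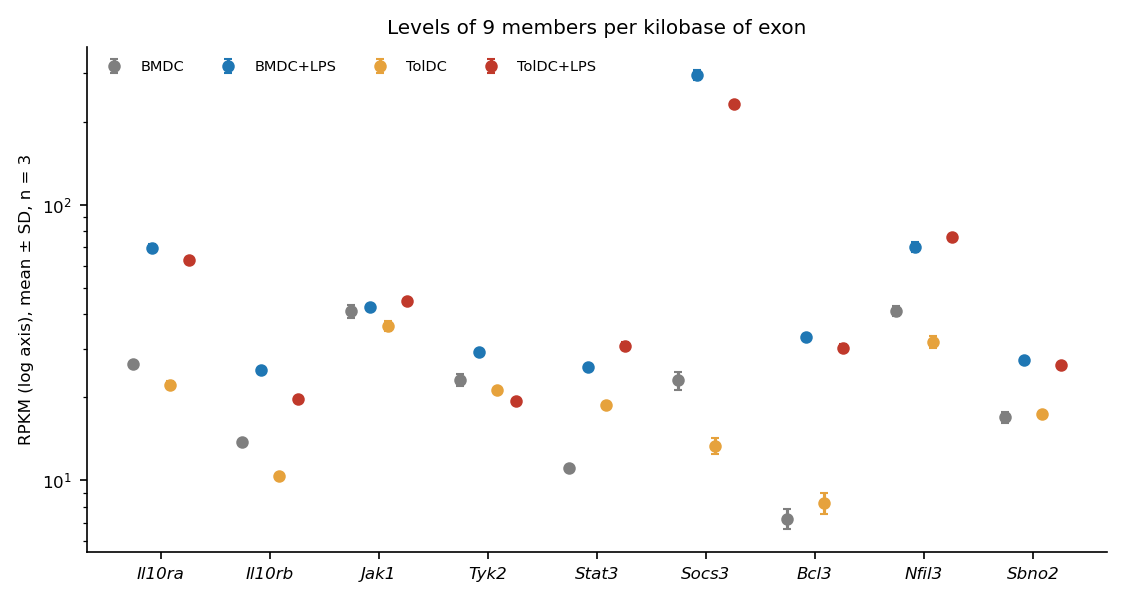
Mean RPKM ± SD (n = 3, log axis) of 9 members in the 4 groups. Jak1 and Tyk2 spanned a narrow range, whereas Socs3 went from 13.3 in TolDC to 296 in BMDC+LPS.

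Among the other JAK and STAT genes, all 8 rose with LPS in both cell types, against 36.7% of all tested genes in BMDC and 35.4% in TolDC. The median log2 change of the 8 was 1.47 in BMDC and 0.59 in TolDC. In TolDC against BMDC, 3 were higher, 4 lower and 1 not called without LPS, and 1 was higher, 6 lower and 1 not called with LPS, against 32% higher and 30.4% lower of all tested genes without LPS and 34.3% and 33.7% with LPS. The split without LPS was near that background. Stat5a, which carries the signal of GM-CSF, was at 844 ± 61.7 CPM in BMDC+LPS and 247 ± 15.1 CPM in TolDC+LPS, a difference of -1.77 ± 0.06 (edgeR adjusted p = 7.72e-15). Stat2, a factor of type I interferon signalling, rose to 420 ± 10.2 CPM in BMDC+LPS and to 216 ± 4.39 CPM in TolDC+LPS (difference -0.96 ± 0.04, edgeR adjusted p = 1.35e-13). Stat4, which carries the IL-12 signal, was at 18.9 ± 2.30 CPM in BMDC+LPS and 8.85 ± 0.613 CPM in TolDC+LPS (difference -1.09 ± 0.13, edgeR adjusted p = 2.45e-06).

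The other receptors that signal through STAT3 were mostly higher in TolDC, in contrast to Il10ra and Il10rb. Counts are given over the 7 of 9 that reached the filter in every group, which leaves out Osmr and Lepr. Of these, 5 were higher and 2 not called without LPS (median log2 difference 1.00), and 7 were higher with LPS (median 1.23), against 32% and 34.3% of all tested genes called higher. Il6st, which encodes gp130, the signalling chain shared by the IL-6 family, was at 31.4 ± 2.12 CPM in BMDC and 205 ± 12.6 CPM in TolDC (log2 difference 2.71 ± 0.07, edgeR adjusted p = 6.01e-15). Lifr, the receptor for leukaemia inhibitory factor, was at 13.4 ± 0.937 CPM in BMDC and 52.1 ± 3.90 CPM in TolDC (1.96 ± 0.08, edgeR adjusted p = 6.00e-13). Il21r, the IL-21 receptor, was at 129 ± 1.56 CPM in BMDC and 482 ± 21.6 CPM in TolDC (1.91 ± 0.04, edgeR adjusted p = 7.02e-17). With LPS the differences of Il6st, Lifr and Il27ra, the IL-27 receptor, were 1.37, 1.66 and 1.35 (edgeR adjusted p = 1.62e-11, 2.22e-10 and 1.48e-08). With LPS itself, 2 of the 7 rose and 4 fell in BMDC, and 3 rose and 4 fell in TolDC. Of all tested genes, 36.7% rose and 36.4% fell in BMDC, and 35.4% rose and 35.9% fell in TolDC. Csf3r, the G-CSF receptor and also a granulocyte gene, rose by 2.45 ± 0.34 in BMDC and 2.44 ± 0.31 in TolDC (edgeR adjusted p = 1.73e-04 and 1.07e-04), and Lifr fell by 1.77 and 2.07 (adjusted p = 5.54e-11 and 1.10e-13).

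**Figure D5:**
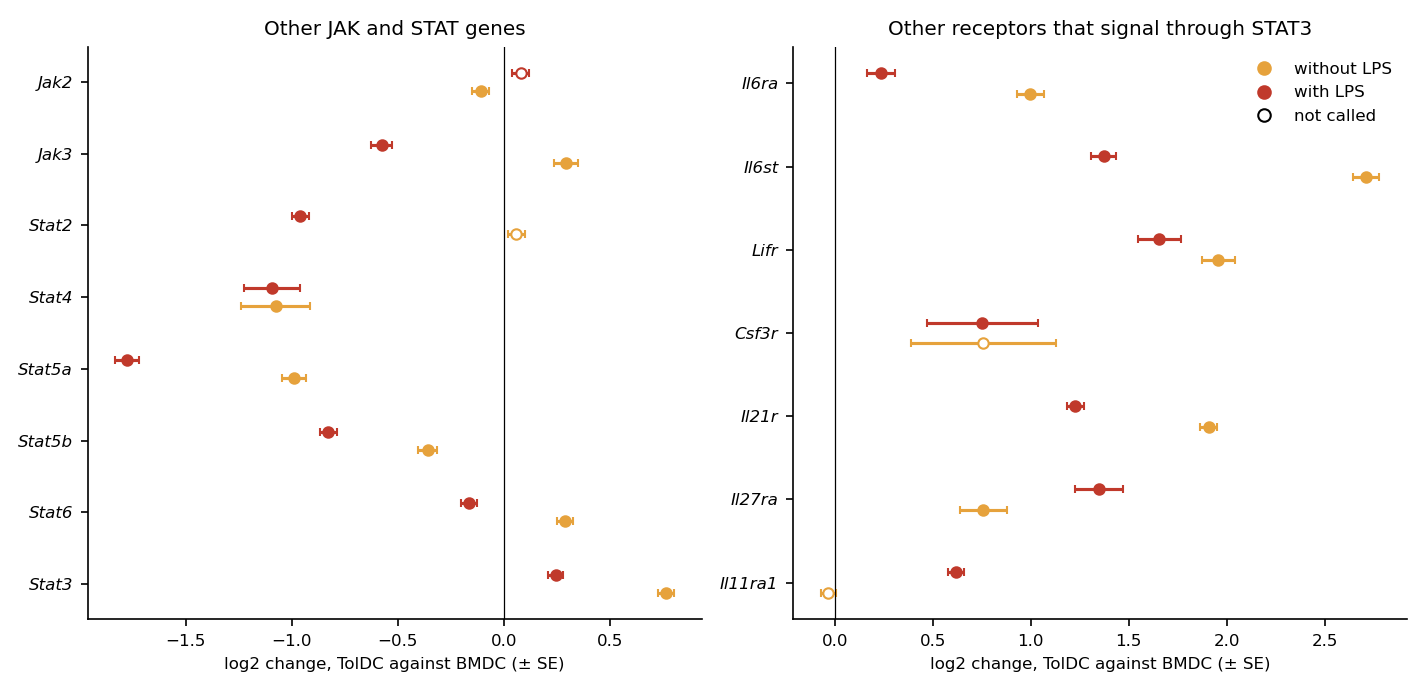
Log2 difference of TolDC from BMDC (± SE) without LPS and with LPS for 7 other JAK and STAT genes with Stat3 (left) and for the other receptors that signal through STAT3 (right), genes of at least 5 CPM in a group. Open symbols were not called; Stat5a reached -1.77 with LPS and Il6st 2.71 without.

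Of 15 other inhibitors of JAK-STAT signalling (SOCS and PIAS proteins and phosphatases), 11 rose and 2 fell with LPS in BMDC, and 7 rose and 5 fell in TolDC, against 36.7% and 36.4% of all tested genes in BMDC and 35.4% and 35.9% in TolDC. In TolDC against BMDC, 5 were higher, 4 lower and 6 not called without LPS, which was near the background of 32% and 30.4%. With LPS 1 was higher, 10 lower and 4 not called (median log2 difference -0.26), beside a background of 34.3% and 33.7%. Socs6 fell with LPS, from 128 ± 1.27 to 33.5 ± 4.10 CPM in BMDC and from 61.2 ± 3.19 to 17.7 ± 0.688 CPM in TolDC, the opposite of Socs3. Its log2 change was -1.93 ± 0.06 and -1.79 ± 0.07 (edgeR adjusted p = 1.13e-14 and 7.95e-14). Socs1, an inhibitor of interferon signalling, rose in both, by 0.82 ± 0.11 and 0.86 ± 0.11 (edgeR adjusted p = 7.23e-05 and 5.33e-05). Socs2, a regulator of growth hormone signalling, was at 134 ± 1.43 CPM in BMDC+LPS and 90.7 ± 5.26 CPM in TolDC+LPS (-0.56 ± 0.04, edgeR adjusted p = 6.92e-10). By the test of the difference, the log2 change with LPS was more negative in TolDC than in BMDC for 8 of the 15 and more positive for none (24% and 20.4% of all tested genes), while that of Socs3 was more positive.

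The other cytokines and receptors of the IL-10 family were mostly below the filter: 6 of 9 (Il19, Il20, Il22, Il24, Il20ra and Il22ra1) did not pass the filter. Of the 3 tested, only Il20rb reached the filter in every group. It rose with LPS in BMDC by 0.89 and in TolDC by 0.17, although the latter was not called without TolDC replicate 2 (adjusted p = 0.0846), TolDC replicate 3 (0.0876) or TolDC+LPS replicate 3 (0.0504). Il20rb, a receptor chain for IL-19, IL-20 and IL-24, was at 16.9 ± 0.866 CPM in BMDC and 29.4 ± 2.59 CPM in TolDC (log2 difference 0.79 ± 0.06, edgeR adjusted p = 2.71e-09). Ifnlr1, which pairs with IL-10RB to bind interferon lambda, was at 5.41 ± 1.70 CPM in BMDC+LPS and 1.88 ± 0.468 CPM in TolDC+LPS (-1.50 ± 0.28, edgeR adjusted p = 3.46e-04).

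Among other genes known to be raised by IL-10 in myeloid cells, 7 of 11 tested were higher in TolDC, 3 lower and 1 not called without LPS, and 6 were higher, 2 lower and 3 not called with LPS. Of all tested genes, 32% were higher and 30.4% lower without LPS, and 34.3% and 33.7% with LPS. Cd163 did not pass the filter. Hmox1, the haem-degrading enzyme, was at 327 ± 6.42 CPM in BMDC and 737 ± 15.0 CPM in TolDC, and at 1261 ± 8.44 CPM and 3232 ± 266 CPM with LPS. The log2 differences were 1.17 ± 0.05 and 1.36 ± 0.05 (edgeR adjusted p = 1.38e-13 and 1.19e-14). Arg1, the arginine-degrading enzyme, was at 411 ± 24.5 CPM in BMDC+LPS and 1622 ± 115 CPM in TolDC+LPS (1.98 ± 0.05, edgeR adjusted p = 6.00e-16). Fcgr1, an IgG receptor that is also on the macrophage list, was at 18.6 ± 0.831 CPM in BMDC and 6.31 ± 0.258 CPM in TolDC (-1.56 ± 0.13, edgeR adjusted p = 6.76e-08).

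For each member, genes of like pattern were ranked by the Euclidean distance over the 12 libraries between log2 CPM values centred on each gene's mean, among 9329 protein-coding candidates. These are descriptions over libraries that share groups and depth. Stat3 was nearest to Slc16a3, a lactate transporter (distance 0.206), and Tpi1, a glycolytic enzyme (0.229). Il10rb was nearest to Pgs1 (0.158) and Zc3hav1 (0.191), Il10ra to Lgals3bp (0.241) and Batf (0.320), and Sbno2 to Nploc4 (0.159) and Nr3c1, the glucocorticoid receptor (0.167). Jak1 was nearest to Rtca (0.173) and Vps11 (0.174), Tyk2 to Rad21 (0.192) and Zbtb1 (0.199), and Bcl3 to Csrnp1 (0.351) and Cd274, which encodes PD-L1 (0.364). Nfil3 was nearest to Npc2 (0.301) and Tmem120a (0.318). Distances were larger for Socs3, with Acsl1 at 0.712 and Procr at 0.994, and for Il10, with Slc25a37 at 1.12 and Oasl2 at 1.16. The distance grows with the size of a change, and by Pearson correlation over the same 12 libraries Socs3 was nearest to Tma16 (r = 0.999) and Il10 to Tmem128 (r = 0.991). Il10 held at most 1 count in any library without LPS, so its distances and correlation rest largely on values at the floor. Slc16a3 had means of 122, 292, 198 and 316 CPM in BMDC, BMDC+LPS, TolDC and TolDC+LPS, the same order as Stat3.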

How the data were processed

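The 12 deposited tables hold raw counts per gene which, per the submitters' processing notes, the authors made from reads handled with cutadapt and STAR against mm10 (GRCm38). Per the labels' protocols, libraries came from a stranded mRNA kit. The sources used here give no versions. Column 4, the stranded counts, was tested, and column 2, counted without regard to strand, was an alternative. Of 31054 identifiers, 31011 were matched to GENCODE M21, which gave symbols, positions and exon lengths. Between 79.3% and 80.6% of reads in a table were assigned to a gene, and the rest were left out.

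All 12 libraries entered 1 fit of the group means (R 4.3.3 and edgeR 4.0.16: filterByExpr with a minimum count of 10, TMM scaling, robust quasi-likelihood), which was tested on simulated data. P-values were adjusted by Benjamini-Hochberg over 13141 genes within each of 5 contrasts. Alternatives were RLE and upper-quartile scaling, DESeq2 1.42.0, limma-voom 3.58.1, no filter, column 2, 2 groups alone, a replicate block, and leaving out libraries. Summing the libraries numbered 2 and 3 was chosen after seeing the data. Replicates 2 and 3 of a group differed little, but by more than sampling noise, and replicate 1 differed more, so 3 were kept per group.

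The members and lists were chosen with earlier results of these data known. All members are named. Of each other list, up to 3 called genes with the largest change and at least 5 CPM in the higher group could be named per contrast, and Osmr, Lepr, Tma16 and Tmem128 are named beyond the rules, after their values were seen. Some genes that the rule selects are not reported here. The 2 nearest genes of like pattern had a mean of at least 5 CPM.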

Additional observations from a re-analysis of the deposited data

Results flagged for a closer look

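The response to LPS differed between TolDC and BMDC for 6 of the 9 members by the interaction term of the edgeR quasi-likelihood fit. P-values were adjusted by Benjamini-Hochberg over all genes. Of all tested genes, 44.4% were called by this term, 20.4% higher and 24% lower. The log2 change was larger in TolDC for Nfil3 (0.49, adjusted p = 7.69e-06), Socs3 (0.43, adjusted p = 1.21e-04) and Jak1 (0.24, adjusted p = 0.00384). It was smaller or opposite in TolDC for Stat3 (-0.52, adjusted p = 2.92e-07), Tyk2 (-0.47, adjusted p = 1.20e-06) and Bcl3 (-0.33, adjusted p = 0.00430).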

How the results depend on the processing

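Of the counts of called genes and members, 427 values under alternatives stayed within 1.5 times the main count and 9 did not. The number of members called higher in TolDC against BMDC with LPS was 1 in place of 2 with RLE scaling, with DESeq2 and with the libraries numbered 2 and 3 summed, where Nfil3 was lost. Leaving out 1 library gave 1 to 2. Without LPS that number was 1 with the summed libraries, where Bcl3 was lost, and 1 to 2 when 1 library was left out. Of the members' log2 changes under alternatives, 972 kept direction and call, 18 lost the call, 12 gained it and 1 reversed: Jak1 with LPS in BMDC was -0.030 with upper-quartile scaling. With that scaling the median log2 change over all tested genes for LPS in BMDC was -0.083, beside -0.00029 in the main fit. The cause of the reversal of Jak1 was not tested. Those gained include Il10 in TolDC+LPS against BMDC+LPS, with the replicate block and without BMDC+LPS replicate 1, which is not read as a result. Of the listed genes' changes, 2037 held and 13 lost the call, among them Ifnlr1 with LPS in BMDC with the summed libraries (0.96, adjusted p = 0.0539).

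Same-numbered libraries correlated over 0.1 in 17 of 18 pairs (lowest 0.091), and 10 of 12 libraries correlated best with their own number, a hint from the data and not from the design. Since 1 pair fell short and the labels name no shared source, the numbers were not taken as pairs. With the replicate block, genes called in TolDC against BMDC with LPS were 4780 higher and 4674 lower, and Sbno2 was called for the difference between responses (-0.11, adjusted p = 0.0410). The block changed no other call among the 9 members. Depth limits Il10, with at most 25 counts in a library.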

Other observations

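Genes known to be restrained by IL-10 in LPS-treated myeloid cells are counted over the 9 of 13 that reached the filter in every group, which leaves out Il12a, Il12b, Il23a and Cxcl10. All 9 rose with LPS in both cell types, against 36.7% of all tested genes in BMDC and 35.4% in TolDC. The median log2 change of the 9 was 5.52 in BMDC and 4.09 in TolDC. In TolDC against BMDC with LPS, 7 of 9 were lower, 1 higher and 1 not called, beside 33.7% lower and 34.3% higher of all tested genes, with a median log2 difference of -0.72. Il12b, the p40 chain of IL-12 and IL-23, was at 185 ± 18.1 CPM in BMDC+LPS and 8.72 ± 0.189 CPM in TolDC+LPS, a difference of -4.41 ± 0.07 (edgeR adjusted p = 3.15e-19). Cd86, a co-stimulatory ligand, was at 132 ± 3.11 and 20.5 ± 0.430 CPM (-2.69 ± 0.04, edgeR adjusted p = 3.98e-19), and Il23a, the p19 chain of IL-23, at 96.1 ± 8.58 and 16.7 ± 0.589 CPM (-2.52 ± 0.10, edgeR adjusted p = 1.40e-11). Without LPS, 4 of 9 were higher and 4 lower in TolDC, beside 32% and 30.4% of all tested genes.

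Of 8 transcription factors known to act on Il10, 7 rose and 1 fell with LPS in BMDC, and 5 rose and 2 fell in TolDC, beside 36.7% and 36.4% of all tested genes in BMDC and 35.4% and 35.9% in TolDC. In TolDC against BMDC with LPS, 3 were higher and 5 lower, beside 34.3% and 33.7%. Without LPS, 2 were higher, 3 lower and 3 not called, beside 32% and 30.4%. Ahr, the aryl hydrocarbon receptor, was at 21.8 ± 0.974 CPM in BMDC and 93.5 ± 5.23 CPM in TolDC (log2 difference 2.10 ± 0.07, edgeR adjusted p = 6.51e-13). Maf, an activator of Il10 in macrophages and T cells, was at 12.4 ± 3.30 CPM in BMDC+LPS and 26.6 ± 5.58 CPM in TolDC+LPS (1.11 ± 0.21, edgeR adjusted p = 8.73e-04). Bhlhe40 was among the lower genes, at 883 ± 53.5 CPM in BMDC+LPS and 523 ± 17.6 CPM in TolDC+LPS (-0.76 ± 0.04, edgeR adjusted p = 1.30e-11).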
